A study of Homo sapiens with 42 samples.

Results

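MV411 is a human cell line from an acute myeloid leukaemia that carries a KMT2A fusion. Its chromatin was profiled after 4 h with FHT-1015, a dual inhibitor of SMARCA4 and SMARCA2, or with DMSO, the solvent, as the negative control. Both groups held 3 samples labelled as biological replicates of wild-type MV411 cells, and these 6 samples are part of 42 from 7 cancer cell lines. The series' design text names the other 6 lines (92-1, 22RV1, RD, A375, DU4475 and HCT116), and MV411 is labelled in the same way as they are. The unit of description was a window of 500 bp around a peak summit. A window was taken as present in a sample when a deposited peak overlapped it by at least 100 bp. The 6 peak lists gave 573957 windows. Of these, 23176 were present in all 3 DMSO samples and in no FHT-1015 sample and are called lost, 930 showed the reverse and are called gained, and 48938 were present in all 6 samples and are called kept.

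SMARCA4 and SMARCA2 are the alternative ATPase motors of the BAF (SWI/SNF) complexes, which use ATP to slide and eject nucleosomes. BAF complexes are known to act at enhancers far from genes, where lineage transcription factors recruit them, more than at promoters rich in CpG. In myeloid leukaemia the ETS factor PU.1 (encoded by SPI1), MYB, CEBPA and RUNX1 are among the factors that occupy such enhancers. ATAC-seq reads these elements through a transposase that cuts open DNA, and a peak marks a place where its insertions pile up.

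The label of the cell type was checked against the gene ends of lineage markers. A strict peak is one with a deposited −log10 q of at least 5. Of 10 myeloid markers, 10, 9 and 9 had a strict peak within 1 kb of a gene end in the 3 MV411 DMSO samples, against 0 to 5 in DMSO samples of the other lines. Of 6 epithelial markers 1, 1 and 1 had one, of 6 skeletal muscle markers 1, 1 and 0, and of 10 erythroid and megakaryocyte markers 2, 1 and 2. Of 12 lymphoid markers, 7, 7 and 6 had a strict peak. Melanocyte markers had one at 3 of 6 genes in each sample, but not at SOX10, MLANA or TYR.

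The 8 promoter sequences printed here were picked by their motif letters or their gene list. They do not stand for lost or kept starts in general. Each is the stretch of 250 bases before the RefSeq gene start (GRCh38.p14), 5′ to 3′ on the strand of the gene. Capitals mark every match, on either strand, to the PU.1 core (GAGGAAGT), ETS (CCGGAAGT), AP-1 (TGANTCA), RUNX (TGTGGTT), CEBP (TTGCNNAA) and IRF letters. A match is a description of the letters and is not evidence of binding. The lost starts of CLEC12A and EBF1, named further below, hold none of the marked letters and are not printed. Of the 28 starts that lost a strict peak, the first 4 are all those with the PU.1 core in their promoter window (14.3%). These genes were named after their values were seen. They belong to ACOD1, which makes itaconate in macrophages (chr13:76948261-76948510, plus strand), to FCRLA, an Fc receptor-like protein (chr1:161706979-161707228, plus strand), to MR1, which presents small metabolites to T cells (chr1:181033137-181033386, plus strand), and to GNAT3, the G protein subunit of taste cells (chr7:80512065-80512314, minus strand).
ACOD1: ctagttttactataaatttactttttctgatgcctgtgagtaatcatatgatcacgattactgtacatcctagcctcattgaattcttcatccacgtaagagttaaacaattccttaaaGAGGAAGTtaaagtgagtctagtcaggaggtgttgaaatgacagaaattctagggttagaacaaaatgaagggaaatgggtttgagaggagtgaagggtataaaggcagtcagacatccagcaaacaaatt
FCRLA: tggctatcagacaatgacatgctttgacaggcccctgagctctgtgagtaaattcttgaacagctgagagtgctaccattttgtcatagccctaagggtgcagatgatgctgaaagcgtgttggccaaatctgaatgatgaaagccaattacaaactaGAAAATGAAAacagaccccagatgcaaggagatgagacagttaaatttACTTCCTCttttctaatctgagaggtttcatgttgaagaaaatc
MR1: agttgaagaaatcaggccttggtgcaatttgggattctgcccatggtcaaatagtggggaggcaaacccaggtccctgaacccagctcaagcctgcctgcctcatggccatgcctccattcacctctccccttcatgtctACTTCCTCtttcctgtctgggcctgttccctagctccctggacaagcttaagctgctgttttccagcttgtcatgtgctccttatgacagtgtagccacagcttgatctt
GNAT3: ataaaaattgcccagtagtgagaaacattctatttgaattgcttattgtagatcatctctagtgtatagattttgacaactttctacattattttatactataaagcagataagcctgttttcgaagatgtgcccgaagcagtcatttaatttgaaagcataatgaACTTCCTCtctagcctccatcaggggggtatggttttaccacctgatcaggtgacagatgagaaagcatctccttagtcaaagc
The next 2 are starts of myeloid effector genes. CSF1R, the receptor for macrophage colony-stimulating factor (chr5:150113366-150113615, minus strand), had a lost start with an AP-1 match. Its DMSO peaks there were weak, with −log10 q of 2.85, 1.93 and 1.23, and other starts of the gene were not examined. Within 50 kb of CSF1R, 3 of 15 DMSO windows were lost and 6 kept, and 2 windows were gained. PRTN3, the neutrophil protease proteinase 3 (chr19:840749-840998, plus strand), had a strict peak in 3 of 3 DMSO samples and in no FHT-1015 sample, with a PU.1 core and a CEBP match, and was also picked after its values were seen.
CSF1R: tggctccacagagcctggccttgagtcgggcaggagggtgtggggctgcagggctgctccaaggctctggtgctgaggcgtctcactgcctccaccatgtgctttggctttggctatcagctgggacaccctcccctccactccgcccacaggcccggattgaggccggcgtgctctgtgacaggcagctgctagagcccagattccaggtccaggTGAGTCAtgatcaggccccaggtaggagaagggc
PRTN3: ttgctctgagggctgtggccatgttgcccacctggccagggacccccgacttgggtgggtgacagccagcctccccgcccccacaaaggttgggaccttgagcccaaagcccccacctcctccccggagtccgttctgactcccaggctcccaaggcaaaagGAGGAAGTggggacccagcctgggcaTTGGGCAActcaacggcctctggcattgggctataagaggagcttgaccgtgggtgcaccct
The last 2 are ribosomal protein genes whose starts carried a strict peak in all 6 samples. RPS6 (chr9:19380237-19380486, minus strand) and RPS18 (chr6:33271825-33272074, plus strand) were the 2 with the strongest DMSO peaks among starts with an ETS match on the lists of housekeeping, myeloid regulator and BAF subunit genes. Of all starts with a strict peak in all 6 samples, 11.6% held the ETS letters.
RPS6: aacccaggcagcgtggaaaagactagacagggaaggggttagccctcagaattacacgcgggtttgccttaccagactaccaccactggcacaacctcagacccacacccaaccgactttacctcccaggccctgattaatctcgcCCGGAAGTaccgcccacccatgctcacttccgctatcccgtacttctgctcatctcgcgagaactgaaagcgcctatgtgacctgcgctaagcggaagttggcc
RPS18: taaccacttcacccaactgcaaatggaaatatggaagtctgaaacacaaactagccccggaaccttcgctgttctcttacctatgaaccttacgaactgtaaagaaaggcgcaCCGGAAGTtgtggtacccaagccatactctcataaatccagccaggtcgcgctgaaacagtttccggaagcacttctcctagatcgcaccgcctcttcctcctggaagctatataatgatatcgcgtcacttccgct

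The 6 lists differed in depth as well as in treatment. They held 200316, 191397 and 279968 peaks in DMSO replicates 1 to 3 and 191857, 185392 and 197611 with FHT-1015, and DMSO replicate 3 stood apart through many weak peaks. The background pileup recovered from fold and p, a stand-in for relative depth, averaged 0.453 ± 0.0484 in DMSO lists and 0.266 ± 0.00548 in FHT-1015 lists (SD, n = 3), without overlap. Read numbers are unknown, and depth and treatment therefore cannot be told apart from the lists as deposited. At most 0.361% of intervals were identical between 2 samples, so no list was a copy of another. Each sample was counted as its own replicate by its label.

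Strong accessible elements far from genes were fewer with FHT-1015, and the difference at gene ends was smaller. DMSO samples had 85344, 77527 and 73182 strict peaks beyond 10 kb of an end of a protein-coding gene, and FHT-1015 samples had 31887, 31223 and 32010. Every FHT-1015 sample lay below every DMSO sample, and their mean amounted to 40.3% of that with DMSO. Within 1 kb of a gene end the numbers were 16236, 15442 and 15250 with DMSO and 12763, 12818 and 12847 with FHT-1015, or 81.9% of the DMSO mean. Of the windows strict in all 3 DMSO samples, 9274 of 11544 (80.3%) within 1 kb and 15760 of 50552 (31.2%) beyond 10 kb were strict in all 6 samples. The share of strict peaks beyond 10 kb averaged 69.8% ± 0.334 in the DMSO group and 59.6% ± 0.274 in the treated group (SD, n = 3). The difference of -10.2 percentage points was larger than the spread between replicates, and the exact two-sided permutation test gave p = 0.1, the smallest that 3 against 3 samples allow. Lists thinned to equal background, at 0.5 of the lowest, were compared over all peaks left with a −log10 p of at least 5. The difference there was -8.24 points, and in the 50000 strongest peaks of every list -7.11 points (exact permutation test, p = 0.1 for both).

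The same contrast appeared among elements that were never lost. Kept windows within 1 kb of a gene end (11337 windows) had a median deposited fold enrichment of 14.9, 13.9 and 13.6 in the DMSO lists and 13.8, 13.8 and 13.8 in the FHT-1015 lists. Kept windows beyond 10 kb (29386 windows) had 14.5, 13.5 and 13.1 with DMSO and 8.09, 7.94 and 7.95 with FHT-1015. Fold values are the authors' and are read within a list, so each list's own ratio of distal to gene-end fold was compared. That ratio averaged 0.9699 ± 0.00475 in the DMSO lists and 0.579 ± 0.00718 in the FHT-1015 lists (SD, n = 3), with no overlap (exact two-sided permutation test, p = 0.1, the smallest possible). This measure was chosen after the data had been seen.

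**Figure D1:**
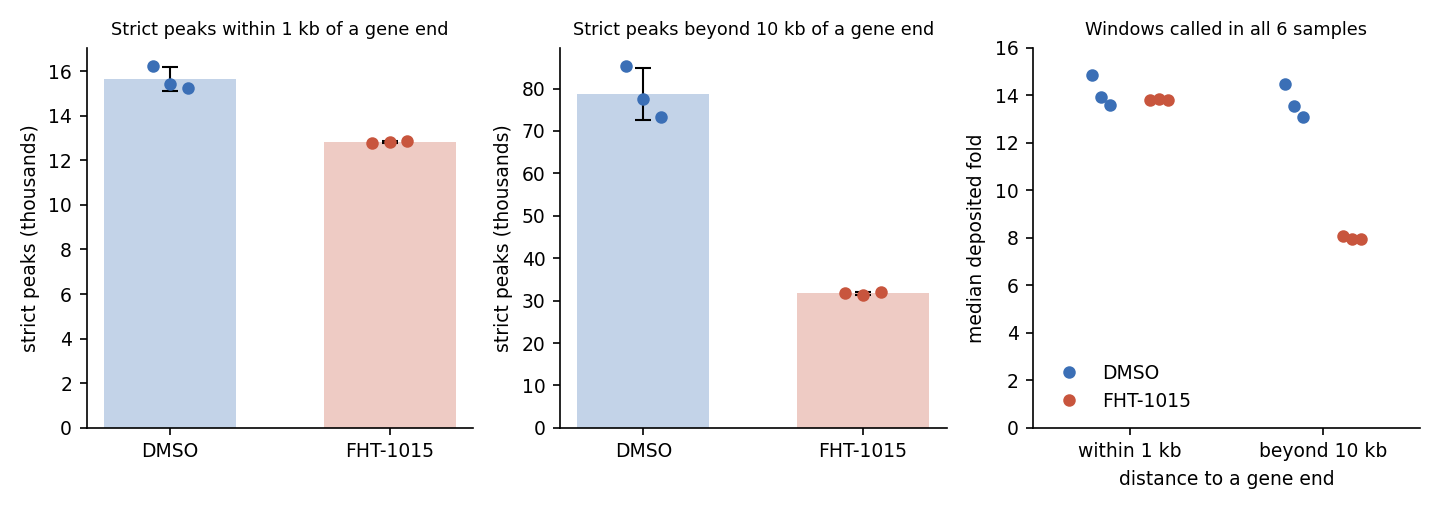
Number of strict peaks within 1 kb and beyond 10 kb of a gene end, and median deposited fold of windows called in all 6 samples by distance to a gene end; points are samples, bars are means and error bars are SD (n = 3). The FHT-1015 mean is 81.9% of the DMSO mean at gene ends and 40.3% beyond 10 kb, and their fold is near 13.8 at gene ends and near 8 beyond 10 kb.

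Lost windows made up 20.9% of the 110959 windows present in all 3 DMSO samples and 4.04% of all windows. Kept windows were 44.1% (39.9% by strict peaks in all 6 samples among windows strict in all 3 DMSO samples), and a further 20789 and 18056 windows stayed in 1 or 2 of the FHT-1015 samples. Gained windows were 1.71% of the 54378 present in all 3 FHT-1015 samples and 0.162% of all windows. When strong presence was required in one group and no peak of any strength in the other, 8095 of 73769 windows (11%) were lost and 17 of 31664 (0.0537%) were gained. Thinning the pileups of the DMSO lists to the lowest FHT-1015 background left 19767 of the lost windows (85.3%) and 7995 of the strict lost windows (98.8%) present in all 3 DMSO lists. A thinned peak kept its interval and needed only a −log10 p of at least 2.00. That cut is lenient for strict peaks, and depth and treatment were not separated by it. Lost windows were 96.1% of all changed windows in the deposited lists but 66.1% (5143 lost, 2643 gained) in the 50000 strongest peaks of every list. Of the windows in either of 2 samples, the share in both was 0.415 to 0.523 between DMSO samples. It was only 0.241 to 0.246 between FHT-1015 samples, and 0.240 to 0.286 across the groups. With strict peaks it was 0.632 to 0.642, 0.559 to 0.567 and 0.360 to 0.389. Gained windows need all 3 FHT-1015 samples, and the part of this lower agreement in their small number was not tested. Leaving out DMSO replicate 2 gave 36027 lost windows, and leaving out DMSO replicate 3 gave 12476 strict lost windows. Gained windows numbered 1436 and 1538 without DMSO replicate 1 or 3, and 5862, 6061 and 5524 without FHT-1015 replicate 1, 2 or 3, where lost windows were 83.1% to 84.6% of the changed ones.

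Lost windows lay farther from genes than kept windows. Their median distance to a gene end was 52.1 kb, against 19.5 kb for kept windows, 32.7 kb for all windows in the 3 DMSO samples and 63.6 kb for all windows. Beyond 10 kb lay 80.6% of lost and 60.05% of kept windows, and beyond 100 kb 35.1% and 21.3%. Within 1 kb of a gene end lay 721 lost windows (3.11%) and 11337 kept windows (23.2%). Near gene starts the classes differed more than near the other end: 1.54% of lost and 18.7% of kept windows lay within 1 kb of a start with known strand, and 0.941% and 1.21% lay near only the other end. About equal shares were inside a gene, at 46.8% and 43.8%. Gained windows had a median of 62.8 kb and 79.4% beyond 10 kb, and of all windows 81.6% lay beyond 10 kb.

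Peak strength and distance each went with loss. Windows in all 3 DMSO samples were ranked by their mean percentile of −log10 p in the DMSO lists and divided into 5 equal groups. From the weakest to the strongest group, 46.2%, 32.1%, 18.5%, 7.03% and 0.680% were lost. In the middle group the share lost was 4.56% within 1 kb of a gene end, 16.4% at 1 to 10 kb, 18.2% at 10 to 100 kb and 25.1% beyond 100 kb. The same order held in the other groups, from 24.3% to 52.7% in the weakest and from 0.0689% to 1.18% in the strongest. By chromosome, 7.67% of DMSO windows were lost on chromosome 19, where 40.1% of them lie within 1 kb of a gene end, and 25.1% on chromosome X, where 13.1% do.

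**Figure D2:**
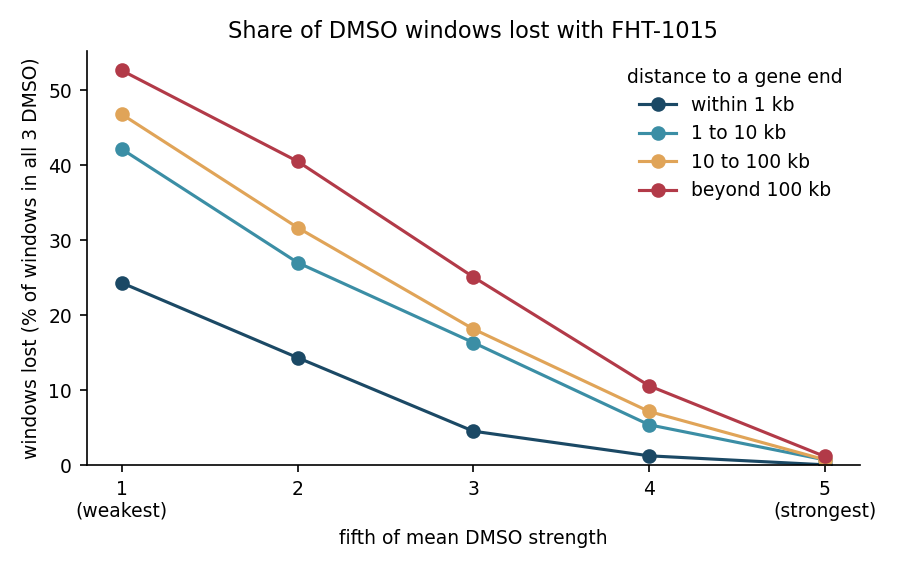
Percent of windows in all 3 DMSO samples that were lost with FHT-1015 (y axis) by group of mean DMSO strength (5 equal groups) (x axis), with 1 line per distance to the nearest gene end. Within each strength group the share is higher farther from genes, for example 4.56% within 1 kb and 25.1% beyond 100 kb in the middle group.

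MYB, a transcription factor needed by many leukaemias, kept its gene start and had lost windows within and beyond its body. Within 50 kb of the gene (chr6:135181308-135219172) 17 windows were present in all 3 DMSO samples, of which 3 were lost and 8 were kept. Around all protein-coding genes 19.1% of such windows were lost. The window at the start had folds of 4.97, 7.85 and 5.57 with DMSO and 4.05, 5.46 and 6.36 with FHT-1015, so the groups overlapped. The lost windows lay 10.2 kb, 23.4 kb and 47.4 kb after the start and were weak in DMSO, with folds between 2.86 and 6.25. The strongest MYB window lay in the gene, 28.7 kb after the start, and had folds of 21.1, 16.4 and 18.5 with DMSO and 5.76, 6.08 and 9.09 with FHT-1015. A window 14.5 kb after the start did not follow it: its folds were 9.59, 11.9 and 11.7 with DMSO and 10.5, 13.3 and 12.9 with FHT-1015. Beyond the gene, the window 52.7 kb after the start had folds of 10.1, 15.6 and 10.8 with DMSO and 3.68, none and 3.94 with FHT-1015. These folds were compared across lists of unlike background. The median fold of all kept windows beyond 10 kb was lower too, at 8.09, 7.94 and 7.95 with FHT-1015 against 14.5, 13.5 and 13.1. Strict windows at MYB numbered 14, 12 and 15 with DMSO and 7, 10 and 7 with FHT-1015, without overlap. They were fewer in the same way at 57.6% of all genes.

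SPI1, which encodes PU.1, had no lost window within 50 kb, while 60.4% of all genes had at least 1. Within 50 kb of the gene (chr11:47354860-47378547) 11 windows were present in all 3 DMSO samples and 8 of them were kept. The window at the higher-coordinate end of the gene had folds of 13.2, 9.63 and 12.9 with DMSO and none, 6.98 and 4.89 with FHT-1015. A window 12.7 kb beyond that end had 11.6, 10.1 and 11.2 with DMSO and 3.65, 6.54 and 3.10 with FHT-1015. All FHT-1015 values of these 2 windows lay below the DMSO values. As at MYB, the lists compared differ in background, and kept windows beyond 10 kb had lower folds in general. Another window, 12.4 kb from the end of the neighbour SLC39A13, went the other way, with 5.94, 6.93 and 5.36 against 8.58, 9.09 and 8.97. The kept window at the proteasome gene PSMC3 had 19.7, 16.3 and 16.8 against 18.3, 19.7 and 14.4. Strict windows at SPI1 numbered 13, 11 and 11 with DMSO and 5, 8 and 6 with FHT-1015, without overlap, as at 57.6% of all genes.

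**Figure D3:**
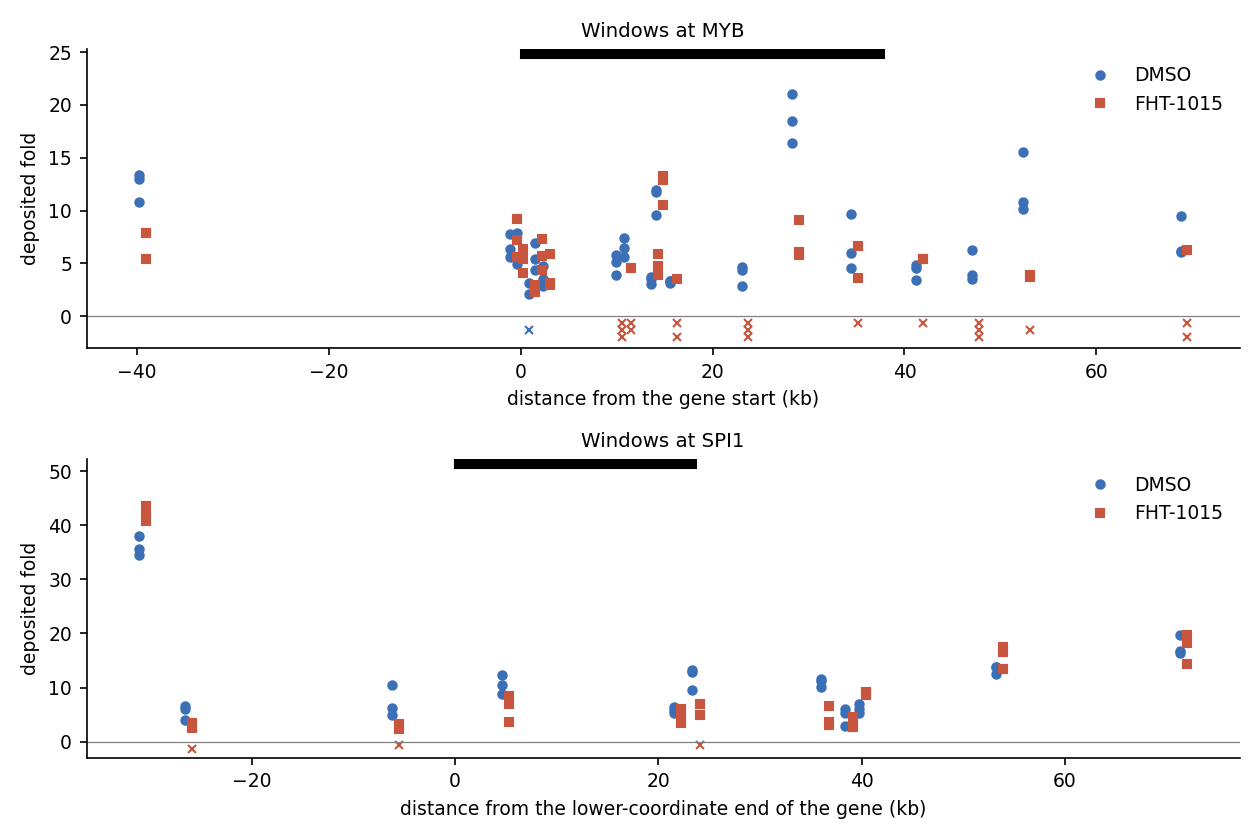
Deposited fold (y axis) of windows at MYB and SPI1 by distance from the gene (x axis, kb); black bars mark the gene, circles are DMSO samples, squares are FHT-1015 samples, and crosses below 0 mark samples with no peak. Windows at the MYB start overlap between groups, while the window 28.7 kb into MYB is lower in all 3 FHT-1015 samples.

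The other myeloid regulators lost part of their windows and none lost all. Over 22 regulator genes, 50 of 310 windows within 50 kb (16.1%) were lost, against 15783 of 82531 (19.1%) around all protein-coding genes. At least 1 lost window was found at 15 of the 22 genes (60.4% of all genes) and a gained window at 2 (4.84% of all genes), ERG and MEF2C. A strict lost window was found at 5 of the 22 (28.7% of all genes). Strict windows were fewer in every FHT-1015 sample than in every DMSO sample at 17 of the 22 genes (57.6% of all genes), and more in every FHT-1015 sample at 0 of the 22 (0.01% of all genes). These shares of all genes, here and for the lists below, were not matched for the number of windows at a gene. A gene with few windows can hardly show such a difference. Summed over the list, strict windows numbered 287, 274 and 268 with DMSO and 124, 128 and 129 with FHT-1015, 46.0% of the DMSO mean against 49.9% around all genes. For the alternatives, the share was set beside that of all windows in the DMSO samples, including those far from genes (20.9% in the main setting). With only strict peaks throughout, it was 31.1% (57 of 183) at the regulators and 33.4% over those windows. In the 50000 strongest peaks of every list it was 6.33% (5 of 79) at the regulators, against 14.6% over those windows.

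Among the regulators with a lost window, ETV6 and IRF8 had few strict windows left. ETV6, an ETS repressor of blood stem cells, had 19, 19 and 18 strict windows with DMSO and 4, 4 and 4 with FHT-1015, with 3 of its 21 DMSO windows lost. IRF8, which directs the monocyte lineage, had 7, 8 and 7 against 3, 1 and 1, and its lost window lay 22.5 kb before the start. ERG, an ETS factor of stem cells, had 5 of 12 windows lost and 1 kept, the strongest of the lost with folds of 12.7, 6.14 and 4.29. RUNX2 had 4 of 19 lost and 15, 15 and 16 strict windows against 7, 4 and 5. FLI1, another ETS factor, had 6 of 31 lost, 1 of them 0.45 kb outside the lower-coordinate end of the gene. IKZF1, the lymphoid and myeloid zinc finger factor Ikaros, had 6 of 30 lost.

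MEF2C, a MADS-box transcription factor, had 4 of 24 windows lost, 3 of them strict, and its gained window had folds of 3.597, 3.68 and 3.94. RUNX1 and ZEB2 lost 4 of 21 and 4 of 22 windows. GFI1, CEBPE, LMO2, KLF4 and EGR2 each had 2 lost windows. CEBPE, a factor of late granulocyte maturation, lost windows 4.09 kb and 6.39 kb after its start. CEBPA, the master factor of granulocyte precursors, lost no window, but 3 of its 10 were kept and its strict windows numbered 11, 11 and 9 with DMSO and 4, 3 and 4 with FHT-1015. Its start was kept, with folds of 17.7, 14.0 and 13.5 against 19.0, 14.1 and 18.6, which overlap.

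KMT2A fusion target genes also had lost windows, and MEF2C, RUNX2 and ZEB2 stand on both lists. Around 15 such genes 40 of 254 windows (15.7%) were lost, against 19.1% around all genes. Strict windows were fewer without overlap at 12 of the 15 genes, against 57.6% of all genes. The genes where the groups met were HOXA7, HOXA9 and HOXA10, neighbours that share most of their windows. HOXA7 had 13, 9 and 10 strict windows with DMSO and 6, 8 and 9 with FHT-1015. Of its 13 windows in all DMSO samples, 1 was lost and 8 were kept. BCL2, which blocks apoptosis, had 10 of 33 windows lost, and its strict windows numbered 22, 27 and 19 with DMSO and 9, 9 and 8 with FHT-1015. CPEB2, an RNA-binding translation factor, had 6 of 12 lost. CDK6, the cell cycle kinase, had 0 of 30 lost within 50 kb and 11 kept, and its strict windows still numbered 30, 28 and 26 against 12, 14 and 17. MEIS1, the partner of HOXA9, had 1 of 26 lost and 8 kept, and its start had folds of 16.5, 16.8 and 13.8 against 17.6, 15.2 and 15.02. The genes named in this paragraph were picked from the list after their values were seen.

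Myeloid effector genes, which encode granule proteins, receptors and antimicrobial enzymes, had a smaller share of windows lost than all genes (19.1%), with no test of that difference. Around 32 genes 35 of 279 windows (12.5%) were lost and 161 were kept, and strict windows were 57.2% of the DMSO mean. They were fewer without overlap at 28 of the 32 genes, against 57.6% of all genes. CLEC12A, an inhibitory lectin of myeloid cells, was the extreme case: 3 of its 5 windows were lost, none was kept, and strict windows numbered 4, 3 and 3 with DMSO and 0, 0 and 0 with FHT-1015. Its start was lost too, with DMSO folds of 10.04, 4.09 and 4.999. S100A8, a calcium-binding alarmin, had 14, 9 and 10 strict windows against 3, 3 and 2, and these windows are shared with its neighbours S100A9 and S100A12. CD68, a lysosomal protein of macrophages, had 9 of 9 windows kept. Here too CLEC12A, S100A8 and CD68 were picked after their values were seen.

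The other lists had higher FHT-1015 levels than the myeloid regulators (46.0%), with no test of the differences. Strict windows with FHT-1015 were 79.1% of the DMSO mean at housekeeping genes, 73.5% at erythroid and megakaryocyte genes, 65.9% at AP-1 and immediate early genes, 64.6% at epithelial genes, 61.4% at BAF subunit genes, 53.4% at lymphoid genes and 52.8% at prostate genes. Cytokine and inflammation genes had a mean of 130 strict windows with DMSO and 78 with FHT-1015. KMT2A fusion targets were at 50.5%, melanocyte genes at 50.4% and skeletal muscle genes at 48.3%. The share of DMSO windows lost was 37.5% (12 of 32) at skeletal muscle genes, 25.5% (12 of 47) at melanocyte genes, 24.0% (6 of 25) at prostate genes, 15.7% (19 of 121) at lymphoid genes and 15.02% (35 of 233) at BAF subunit genes. It was 12.3% (14 of 114) at housekeeping genes, 10.1% at AP-1 genes (14 of 138) and at cytokine genes (14 of 139), 8.33% (2 of 24) at epithelial genes and 5.66% (3 of 53) at erythroid genes. The last and the small tissue lists rest on few windows.

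**Figure D4:**
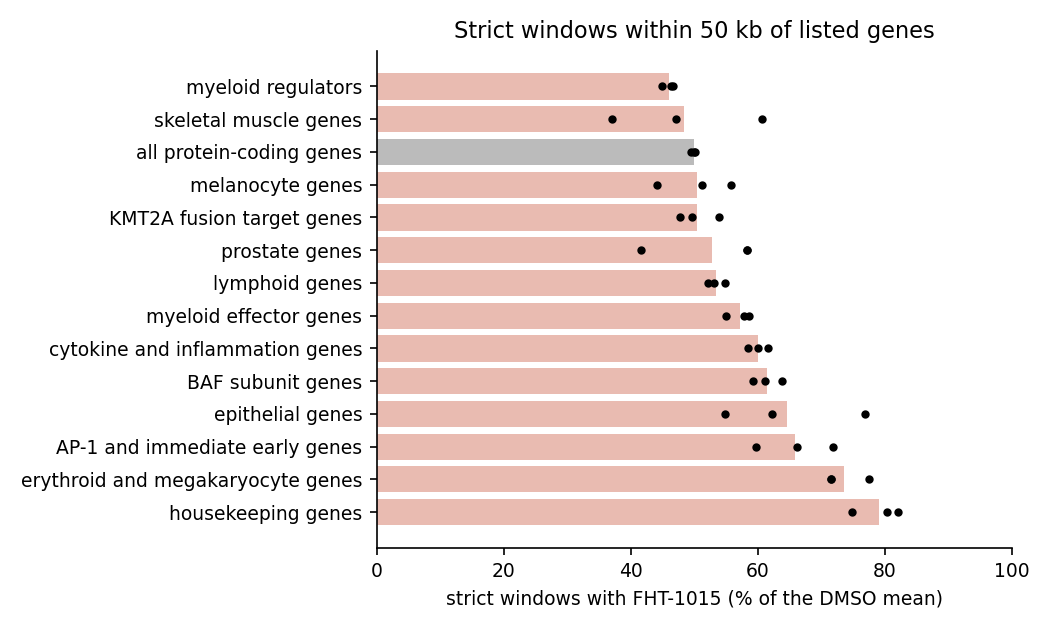
Strict windows within 50 kb of listed genes with FHT-1015 (x axis, percent of the DMSO mean); bars are means, points are the 3 FHT-1015 samples, and the grey bar is all protein-coding genes (49.9%). Myeloid regulators (46.0%) lie lowest of the lists, and housekeeping genes (79.1%) lie highest.

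Lost windows were spread over many genes. A lost window had 1 of 8012 genes as its nearest, 1377 genes had at least 5 and 393 at least 10. Outside chromosome 8, the genes with the most included the teneurins TENM4 (30 of 109 DMSO windows), TENM3 (30 of 139) and TENM2 (28 of 116), large cell-surface proteins of neurons. The axon guidance receptor ROBO2 had 29 of 77, the cadherin CDH8 28 of 79, the contactin-associated protein CNTNAP5 27 of 60, the RNA-binding protein CELF2 27 of 90 and the glypican GPC5 27 of 135. FHIT, a tumour suppressor at a fragile site, and NR2F2, an orphan nuclear receptor, each had 26, of 77 and 85. PCDH9 (26 of 92), LRP1B (26 of 94), SPRY2 (25 of 72), CADM2 (25 of 76), EFNA5 (25 of 86) and PTPRD (25 of 88) followed. HACE1 (24 of 60), ZNF385D (23 of 67) and CTNNA2 (23 of 86) were also among the 20.

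These 20 genes have a median length of 1037 kb, against 24.2 kb for all protein-coding genes. SPRY2, a feedback inhibitor of growth factor signalling of 5.15 kb, and NR2F2, of 14.2 kb, are the short ones. The median percent of their DMSO windows that was lost was 29.5%, which describes the choice, since the genes were picked by their number of lost windows. BEND2, a BEN domain protein on chromosome X, was the only gene among 6439 with at least 5 DMSO windows to lose all of them, 5 of 5. It was noticed after its values were seen.

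Lost windows did not form large blocks. Among consecutive DMSO windows at most 2 kb apart, the next window was lost for 18.8% of lost and 15.8% of other windows. Runs of consecutive lost windows held 1 window in 13879 cases, 2 in 3046 and 3 in 722. The longest runs held 8 windows, over 135.7 kb at ARL15 on chromosome 5 and over 283.1 kb around BEND2. Runs of 7 lay at DISC1 over 175.3 kb and at CASK over 509.0 kb.

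Of the 10 strongest strict lost windows outside chromosome 8, 9 lay more than 1 kb from a gene end. The first by mean DMSO percentile lay 28.2 kb outside PROS1, the gene of the anticoagulant protein S (chr3:93844629-93845128). Its folds were 26.8, 23.7 and 23.3 with DMSO, no FHT-1015 sample had a peak, and 1 of 18 DMSO samples of the other lines had it. The next lay 4.73 kb outside MAP3K4, a stress kinase (chr6:160986791-160987290), with 18.4, 19.3 and 16.1, and in 0 of 18 DMSO samples of the other lines. Near TENT4A, a poly(A) polymerase, the window chr5:6766477-6766976 had 21.1, 16.3 and 16.2, and it was present in 17 of 18 DMSO and 12 of 18 FHT-1015 samples of the other lines.

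Further strong lost windows lay inside SYT1, a synaptic calcium sensor (20.7, 23.5 and 23.3), inside the flippase gene ATP10B (26.5, 27.2 and 20.1) and inside FOCAD (27.3, 21.2 and 23.4). Others lay 74.1 kb from the receptor phosphatase PTPRZ1 (25.7, 25 and 18.96), 751.5 kb from the inositol kinase IPMK (23.5, 22.5 and 28.9) and 212.1 kb from the activin receptor ACVR2A (13.5, 13.2 and 14.6). A gene end was within 1 kb only for ANGPTL5 among these 10, at 0.60 kb, with 13.2, 15.7 and 14.6. Strong lost windows within 1 kb of a gene end also lay at B3GAT2 (17.6, 15.9 and 18.4), PIK3C3, the class III phosphoinositide kinase (21.4, 12.04 and 14.5), SLC22A4, the ergothioneine transporter (12.1, 7.91 and 11.2), PCF11, a factor of transcription termination (6.80, 6.63 and 7.49), and MON1B (7.21, 6.58 and 7.38).

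Gained windows were few and weaker. Chromosome 8 held 124 of them, 3.43% of its windows in all 3 FHT-1015 samples against 1.71% over all chromosomes, and was left out of the ranking. The strongest elsewhere lay 32.1 kb from IL21, a T cell cytokine (chr4:122577751-122578250). Its folds were 6.92, 13.9 and 9.38 in the FHT-1015 samples, with none in DMSO. A window 0.71 kb outside NR2F6, an orphan nuclear receptor, had 4.45, 15.8 and 14.8. Windows with FHT-1015 folds under 11 in every sample lay outside RGSL1 (1.67 kb), PRDX4 (33.1 kb), PLA2G4A (425.0 kb) and TENM3 (1390.02 kb) and inside ADCY7, RPS6KA2, FBXO28 and CFAP58. Of these 10, the 8 at IL21, NR2F6, ADCY7, RPS6KA2, RGSL1, CFAP58, PLA2G4A and TENM3 were present in 2 to 13 of 18 DMSO samples of other lines, and those at PRDX4 and FBXO28 in none. The median fold of gained windows was 3.95, 3.97 and 3.94 in the FHT-1015 lists, against 8.91, 8.80 and 8.82 for kept windows in the same lists.

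Gene starts showed how rarely a promoter was lost. RefSeq gives a start and strand for 15813 of the 19974 protein-coding genes, and a window of 500 bp was centred on each start. The start was present in all 3 DMSO samples for 9087 genes, of which 107 (1.18%) were lost and 8457 were kept. Of 8606 starts present in all 3 FHT-1015 samples 10 (0.116%) were gained, and of 8308 strict in all 3 DMSO samples 28 (0.337%) lost every peak. Lost starts numbered 175 without DMSO replicate 2, 164, 164 and 173 without FHT-1015 replicate 1, 2 or 3, and 165 with strict peaks throughout. All 14 housekeeping starts with a strand were kept. Of 19 BAF subunit starts 15 were kept, 0 were lost and 1 was in no sample. Of 18 myeloid regulator starts 11 were kept, 0 were lost and 3 were in no sample. Over all 15813 starts 53.5% were kept and 29.8% were in no sample. Lost starts on the lists were those of CSF1R and CLEC12A (myeloid effectors) and EBF1, a B cell factor, with DMSO folds of 7.62, 5.93 and 4.38.

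Lost starts were poor in GC and CpG. Their median GC content from 250 bases before to 50 after the start was 55.7%, against 66.3% for kept and 62.7% for all starts, and their median CpG ratio (observed over expected) was 0.325 against 0.871 and 0.763. The share lost among starts in all 3 DMSO samples was 9.66% (23 of 238) below 45% GC, 3.15% (28 of 889) at 45 to 55%, 1.15% (34 of 2959) at 55 to 65% and 0.440% (22 of 5001) above. Outside MV411, lost starts were present in a median of 7 of 18 DMSO samples and kept starts in 18.

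The letters of the PU.1, CEBP, AP-1, RUNX and IRF motifs were in a larger share of lost than of kept starts, with no test. The PU.1 core was in 9.35% of lost, 2.51% of kept and 2.52% of all promoter windows of that extent. The CEBP letters were in 16.8%, 6.60% and 8.37%, AP-1 in 13.1%, 3.37% and 5.75%, RUNX in 7.48%, 2.76% and 3.55%, and IRF in 7.48%, 2.64% and 3.17%. The letters AGATAA, which GATA factors are known to bind, were in 9.35%, 3.61% and 7.55%. The ETS letters CCGGAAGT, which RPS6 and RPS18 carry in the sequences above, were in 0 of 107 lost, 10.8% of kept and 6.20% of all windows. The SP letters GGGCGG were in 37.4%, 75.7% and 58.5% and the E-box CACGTG in 4.67%, 11.1% and 8.87%. Base composition differs between the classes, and its part in these shares was not tested.

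The MYB letters AACNGTT were in 3.74% of lost, 2.28% of kept and 2.90% of all promoter windows, and the CTCF core in 0.935%, 0.922% and 0.683%.

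The printed starts had the following values. ACOD1 had DMSO folds of 6.81, 6.52 and 9.30, FCRLA 8.70, 5.46 and 11.5, MR1 11.2, 8.30 and 6.88, and GNAT3 6.43, 6.14 and 6.43, and no FHT-1015 sample had a peak at these 4. CSF1R had 4.01, 3.41 and 2.86 and no FHT-1015 peak. PRTN3 had 11.8, 9.42 and 11.4 with DMSO and 4.62, 4.51 and none with FHT-1015. RPS6 had 20.9, 19.6 and 20.3 with DMSO and 21.0, 23.1 and 20.6 with FHT-1015, so the groups overlapped. RPS18 had 12.96, 5.3 and 12.8 with DMSO and 11.6, 14.2 and 11.4 with FHT-1015, which also overlap. The start of INPP4B, a phosphoinositide phosphatase, was the strongest of the 28 strict lost starts, with 13.4, 18.2 and 14.7. Starts of IL18RAP (12.3, 11.6 and 12.3), a subunit of the interleukin-18 receptor, and IFI16 (9.62, 6.98 and 9.55), a DNA sensor, were among the same 28 and were picked after their values were seen.

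Windows lost in MV411 were present in fewer samples of the other lines than kept windows, with a median of 1 against 7 of 18 DMSO samples. Absent from every DMSO sample of the other 6 lines were 37.4% of lost and 12.8% of kept windows. For 86.3% of lost and 40.6% of kept windows, no other line had the window in all 3 of its DMSO samples. All 18 DMSO samples of the other lines had 14 lost windows (0.0604%) and 7851 kept windows (16.04%). Examples, named after their values were seen, were a window inside TACC2 with DMSO folds of 11.4, 11.99 and 12.7 and one inside OTUD7B with 14.0, 14.3 and 10.7. Both were present in 18 of 18 DMSO samples elsewhere and in 14 and 15 of 18 FHT-1015 samples.

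The samples of the other lines had no part in choosing the windows and gave an independent test. In each sample, the percent of MV411-lost windows present was divided by the percent of MV411-kept windows present. Lost windows were weaker than kept ones in MV411, and the ratio was not matched for peak strength, so the part of list length and depth in it was not separated by this ratio alone. The log2 of this ratio was lower with FHT-1015 by 0.31 on average over the 6 lines, and its mean was lower in 6 of 6 (two-sided permutation of the treatment labels inside each line, p = 0.00086, n = 3 a group). The DMSO and FHT-1015 means were -1.85 ± 0.0471 and -2.46 ± 0.122 for 92-1, -2.01 ± 0.0483 and -2.42 ± 0.109 for RD, and -1.97 ± 0.128 and -2.40 ± 0.163 for A375 (SD, n = 3), without overlap. The 92-1 FHT-1015 samples had few peaks at MV411-kept windows too, 30.8% ± 13.2 against 47.4% ± 6.76 with DMSO. Such a fall was not limited to 92-1. The log2 percent of MV411-kept windows present differed by -0.19 on average and was below DMSO in 6 of 6 lines (same permutation test, p = 0.0091). For MV411-lost windows it differed by -0.50, also in 6 of 6 lines (same permutation test, p = 0.00048). In 22RV1 (-2.28 ± 0.171 and -2.40 ± 0.210), DU4475 (-2.18 ± 0.0459 and -2.20 ± 0.145) and HCT116 (-2.66 ± 0.352 and -2.95 ± 0.603) the groups overlapped. Without 92-1 the mean difference was -0.25 (permutation test, p = 0.0101). With lost and kept windows beyond 10 kb only it was -0.23 (permutation test, p = 0.00642) and below 0 in 5 of 6 lines. It was -0.74 in the 50000 strongest peaks of every list (permutation test, p = 1e-05, the smallest the draws can give).

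**Figure D5:**
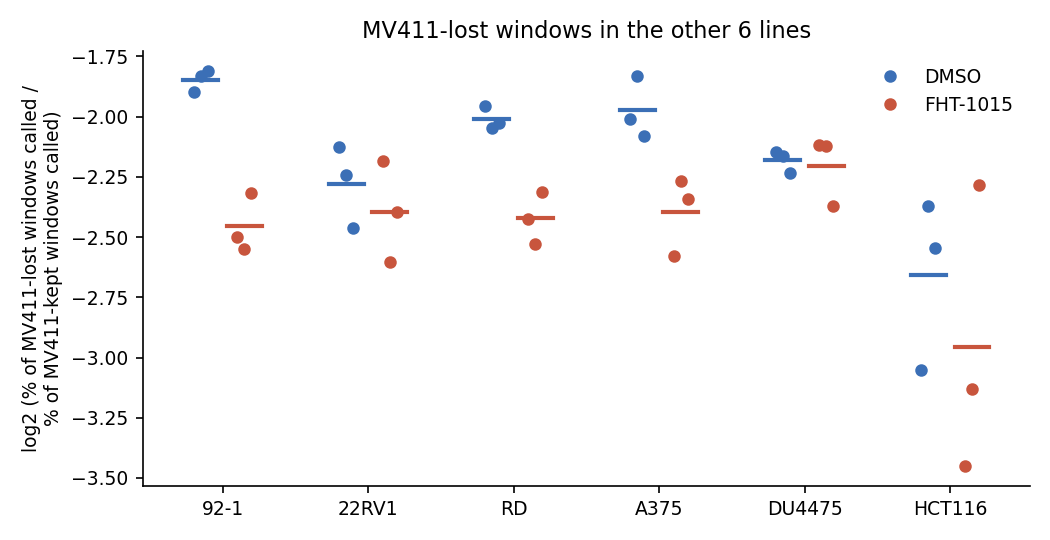
Log2 ratio of the percent of MV411-lost windows called to the percent of MV411-kept windows called (y axis) in samples of the other 6 lines (x axis); points are samples and bars are group means. The groups do not overlap in 92-1, RD and A375, and the means are lower with FHT-1015 in 6 of 6 lines.

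Where another line had an MV411-lost window in all 3 of its DMSO samples, the share lost there was higher than for MV411-kept windows in 6 of 6 lines. In 92-1, 318 of 641 such windows (49.6%) were absent from all 3 FHT-1015 samples, against 6.77% of MV411-kept windows. The shares were 27.6% and 1.63% for 22RV1, 27.4% and 4.33% for RD, 16.1% and 1.196% in HCT116, 11.8% and 1.65% in A375 and 8.91% and 1.25% in DU4475. These shares were not matched for peak strength, and lost windows were weaker in MV411 than kept ones.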

How the data were processed

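ATAC-seq peak lists of 6 MV411 samples were analysed, with those of the other 6 lines for comparison. The authors deposited, per sample, peaks with a fold ratio over local background, −log10 p and −log10 q, in narrowPeak format. Bowtie2, Picard, MACS2, limma and HOMER and the build hg38 are named per the submitters' processing notes, which give no roles or versions. Read numbers were not analysed here. The deposited −log10 p started at 2.00, so lists hold weak peaks, and list length follows depth as well as accessibility.

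Windows of 500 bp around summits were chosen so as not to overlap, starting with peaks that rank highest by −log10 p in their own list, on chromosomes 1 to 22 and X. A peak had to overlap a window by 100 bp. Distances run from the window centre to the nearest end of 19974 protein-coding genes (RefSeq, GRCh38.p14). The background pileup of every peak was solved from fold and p with a tolerance of 0.01. Single values per sample were compared by exact permutation, and the other lines by 100000 permutations within lines. Labels call the samples biological replicates and do not say whether cultures were separate, so p-values measure the spread between these samples. Scripts were tested on simulated data. Python 3.11.15, numpy 2.4.6, pandas 2.3.3, scipy 1.17.1, numba 0.67.0 and matplotlib 3.10.9 were used.

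The members and lists were chosen with earlier results of these data known. Named by rule were SPI1 and MYB, the 20 genes nearest to the most lost windows, the 10 strongest strict lost windows, the 6 strongest of these within 1 kb of a gene end, the 10 strongest gained windows, and myeloid regulators with a lost or gained window within 50 kb. Windows and genes on chromosome 8 were counted, but were left out of these rankings and not named. The values of 1 of the 20 genes are not reported here. Motifs were to be searched in the windows. Without a genome sequence they were searched in promoters from 250 bases before to 50 after the start. Alternatives changed the threshold, background, overlap, window building and replicates.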

Additional observations from a re-analysis of the deposited data

Results flagged for a closer look

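Peaks on scaffolds outside chromosomes 1 to 22, X and Y entered no comparison. They numbered 995 over the 6 MV411 lists, with 137, 130 and 201 in the DMSO samples and 169, 169 and 189 in the FHT-1015 samples. Strict peaks among them numbered 72, 60 and 59 with DMSO and 54, 44 and 51 with FHT-1015.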

How the results depend on the processing

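Of the values under alternatives, 70 stayed within set limits, 28 moved and 0 reversed. Counts were held to a fold range, and shares to a Wilson interval that treats windows as independent. Counts and shares could only stay or move. A reversal was possible only for the differences in distal share and in the other lines. With −log10 q of at least 5 throughout, there were 172 gained windows, 81.2% of lost windows lay beyond 10 kb, 31.1% were lost at myeloid regulators (all windows 33.4%) and 165 gene starts were lost. Here all windows means those in all DMSO samples used, including windows far from genes. With lists thinned to equal background (0.5 of the lowest, −log10 p of at least 5) there were 8602 lost and 573 gained windows and 83.3% of the lost lay beyond 10 kb. The 50000 strongest peaks of every list gave 5143 lost and 2643 gained windows, 85.5% beyond 10 kb and 6.33% lost at myeloid regulators (all windows 14.6%). An overlap of 250 bp gave 13683 lost and 185 gained windows. Leaving out single replicates gave 29799 to 36027 lost, 1264 to 6061 gained and 10332 to 12476 strict lost windows, 80.0% to 80.9% of lost windows beyond 10 kb, 19.5% to 23.9% lost at myeloid regulators (all windows 24.2% to 27.4%) and 141 to 175 lost starts. Fewer samples have to share a call there, and otherwise the cause was not tested. The other-line difference ranged from -0.23 to -1.41. Same-numbered samples had correlations of -0.0039 to 0.0023 and share only a number. With the replicate block, the difference in distal share was -10.2 points (exact sign permutation, p = 0.25) and the other-line difference -0.31 (permutation test, p = 0.00049). Several alternatives for strict lost windows and gene starts, and those without 92-1 or limited to distal windows, were chosen after seeing the data. Without read numbers, weak peaks cannot be judged against depth.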
